A study of Mus musculus with 2 samples.

Results

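Mir21a and Mir22 are 2 microRNA (miRNA) genes of mouse chromosome 11 whose hairpins lie inside exons of longer host transcripts. They were chosen by gene identifier (ENSMUSG00000065455 and ENSMUSG00000065529) and make up 2 of the 1973 gene rows. The rule uses no counts, but it was set with earlier results of these data known. Their counts come from miRNA sequencing of whole liver of B6NCrl mouse embryos at embryonic day 16.5. The series holds 1 group of 2 libraries, called replicate 1 and replicate 2. Each library is a pool of livers of healthy embryos of both sexes, with 41 embryos in the pool of replicate 2 and a number not given in the labels for replicate 1. No genotype change or treatment is named in the labels. Both pools carry the same donor label, so the spread between them is that of 2 tissue pools of 1 strain. With 1 group there is no contrast between conditions. The comparisons are therefore between the members, with the other miRNA genes, and between the pools.

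A miRNA is cut from a hairpin by the enzymes Drosha and Dicer, and 1 of the 2 arms usually guides the silencing complex to messenger RNAs. Pairing runs mainly through the seed, bases 2 to 8 of the arm. miR-21 is known as a growth-associated miRNA that is raised in regenerating and injured liver and in many tumours. miR-22 is widely expressed, is abundant in liver and heart, and is known for roles in lipid and energy metabolism and in blood formation. When a hairpin lies in an exon, cutting it out breaks the host transcript, whereas an intronic hairpin can be released without loss of the spliced RNA.

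The 4 mature arms are shown because the counts per hairpin gene do not separate them and because the seed defines which miRNAs share targets. They are from RefSeq on GRCm38.p6, written 5′ to 3′ with the seed in capitals.
miR-21a-5p: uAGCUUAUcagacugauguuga
miR-21a-3p: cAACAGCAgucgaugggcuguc
miR-22-5p: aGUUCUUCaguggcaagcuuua
miR-22-3p: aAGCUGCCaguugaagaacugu

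All 4 annotated arms are 22 bases long. The length of the counted reads and the share of each arm were not measured here. All 4 seeds differ from each other. Of the other mature arms in the RefSeq table, 1 shares a seed with a member: miR-21c carries the seed of miR-21a-5p and has 15 bases in a row in common with it.
miR-21c: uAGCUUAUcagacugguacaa
Mir21c had 0 counts in both libraries. No other gene in that table carries the seed of miR-21a-3p, miR-22-5p or miR-22-3p. Of the 1973 rows, 916 have a name with a mature arm in the table. Arms missing from it were not compared, so further miRNAs may share a seed. None of the 18-base words of either member hairpin occurs in another listed hairpin (0% for Mir21a and 0% for Mir22), so neither shares such a word with a near-identical listed copy.

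The Mir21a hairpin (ENSMUSG00000065455.1; 92 bases) lies on chromosome 11 at 86584067 to 86584158 of mm10, minus strand. In GENCODE M21 it is wholly within exon 12 of 12 of Vmp1-201, a transcript of Vmp1, a gene for a membrane protein of the endoplasmic reticulum that takes part in autophagy. That exon (86583865 to 86585451) is 1587 bases long. The hairpin is in its 3′ untranslated region, 1152 bases past the end of the coding sequence and 202 bases before the end of the transcript. Of the 8 Vmp1 transcripts annotated, this is the 1 that spans the hairpin.

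The Mir22 hairpin (ENSMUSG00000065529.1; 95 bases) lies at 75463716 to 75463810 of the same chromosome, plus strand. It is within exon 2 of both transcripts of Mir22hg, a noncoding RNA gene named for this miRNA. The hairpin starts 23 bases into that exon. In Mir22hg-202 the exon is 165 bases long and the hairpin fills 57.6% of it, and in Mir22hg-201 the exon is 337 bases long. A second gene on the same strand spans it too: a noncoding transcript of the protein-coding gene Tlcd2 (Tlcd2-203) has the same 165-base exon as its exon 2 of 5. Annotation therefore gives Mir22 2 hosts and Mir21a 1. No annotated gene lies on the opposite strand of either hairpin.

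**Figure D1:**
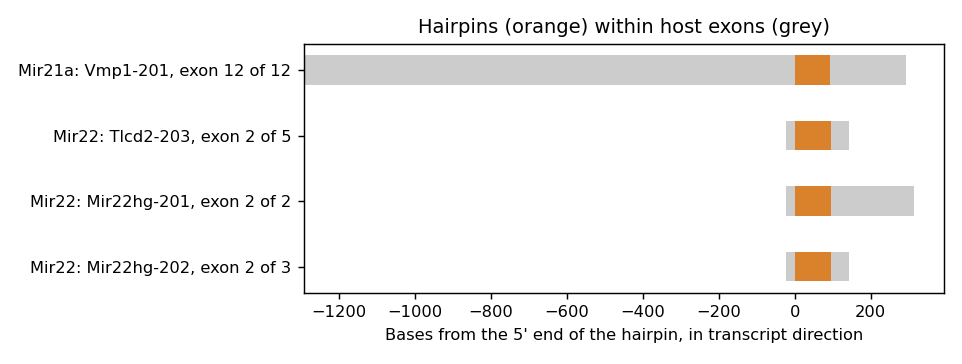
Position of each hairpin (orange) in the host exons that hold it (grey), in bases from the 5′ end of the hairpin. Mir21a lies 1293 bases into a long terminal exon, and Mir22 lies 23 bases into exon 2 of all 3 transcripts that hold it.

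Both hairpins are predicted to fold into a stem with 16 bases between the arms (RNAfold). The predicted minimum free energy was -46.2 kcal/mol for Mir21a and -41.9 kcal/mol for Mir22. Per base, this was -0.502 for Mir21a and -0.441 for Mir22, against a median of -0.434 over the 397 hairpins at or above 1 CPM in both libraries (CPM, counts scaled to an equal library total). Of these 397, 19.9% were as stable per base as Mir21a or more so, and 45.3% as Mir22 or more so.

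Mir21a had 110633 counts in replicate 1 and 96811 in replicate 2. Of all counts on the annotated strand of miRNA genes, these were 1.87% (95% Clopper-Pearson interval 1.855% to 1.877%) and 1.90% (1.886% to 1.909%). Its level was 18656 CPM and 18974 CPM, or 18815 ± 225 CPM (SD, n = 2). Among counts on the annotated strand of listed genes, it ranked 10 in each library and 11 by mean level. This order leaves out multimapping reads (28.1% and 28.2% of those tallied), so genes that share sequence with another locus can rank too low. It also leaves out counts on the other strand of a row. Those of the Mir142b row (186850 and 186235) exceeded the Mir21a count in both libraries, and those of the Gm24321 row (133886 and 92537) did so in replicate 1. Mir22 had 86423 counts in replicate 1 and 78119 in replicate 2, or 1.46% (1.448% to 1.467%) and 1.53% (1.520% to 1.542%) of the total. Its level was 14574 CPM and 15311 CPM, or 14942 ± 521 CPM (SD, n = 2), and it ranked 20 and 17. Other-strand counts of the Mir142b and Gm24321 rows exceeded the Mir22 count in both libraries. Those of the Gm25252 row (80760) did so in replicate 2. Together Mir21a and Mir22 held 3.32% of the counts in replicate 1 and 3.43% in replicate 2. These intervals hold counting error alone and take no account of PCR copies. In whole liver, the number of cells that express a miRNA and its amount per cell cannot be told apart.

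Mir21a exceeded Mir22 in both libraries. The ratio of their counts was 1.28 in replicate 1 (95% counting interval 1.269 to 1.292) and 1.24 in replicate 2 (1.228 to 1.251). On the log2 scale the mean ratio was 0.33 ± 0.033 (SD, n = 2), so the level ranges of the 2 genes do not overlap. No test of this ratio is given, because with 2 libraries an exact two-sided sign-flip test cannot give a p below 0.5. A bias between the 2 sequences in ligation or amplification would be shared by both libraries and is not covered by this spread.

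The other strand held almost nothing at either locus. Mir21a had 0 counts there in replicate 1 and 2 in replicate 2. Mir22 had 0 in both, and a count of 0 allows up to 0.00347% of its sense count in replicate 1 and 0.00384% in replicate 2. Among the 82 genes that reached 1000 CPM on average, 67 had no other-strand count in either library, so Mir22 is like most of them in this respect.

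In the order of mean levels, Mir21a could not be separated from the 2 genes just above it. Mir322, of the miR-15/16 seed family, was at 20331 CPM in replicate 1 and 18827 CPM in replicate 2. Mir30e, of the miR-30 family, was at 17460 CPM and 20197 CPM. The range of each takes in that of Mir21a in part or whole. Mir17, of the miR-17-92 cluster, lay above it without overlap (22237 ± 2187 CPM, SD, n = 2). Below it, the granulocyte and monocyte miRNA Mir223 (17149 ± 537 CPM), Mir130a (17114 ± 970 CPM) and the erythroid Mir451a (16978 ± 722 CPM) did not overlap it.

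Mir22 could not be separated from 4 of the 6 genes nearest to it in level. Its range overlapped those of Mir143, a smooth muscle and mesenchymal miRNA (15059 and 17326 CPM), Mir30a (14733 and 17156 CPM), Mir487b (16447 and 14246 CPM) and Mir431 (16151 and 13114 CPM). Mir487b and Mir431 belong to the imprinted Dlk1-Dio3 cluster. Mir99a (13641 ± 504 CPM) and Mir23a (12861 ± 1052 CPM) lay below Mir22 without overlap. Its place in the order is therefore uncertain by several ranks.

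**Figure D2:**
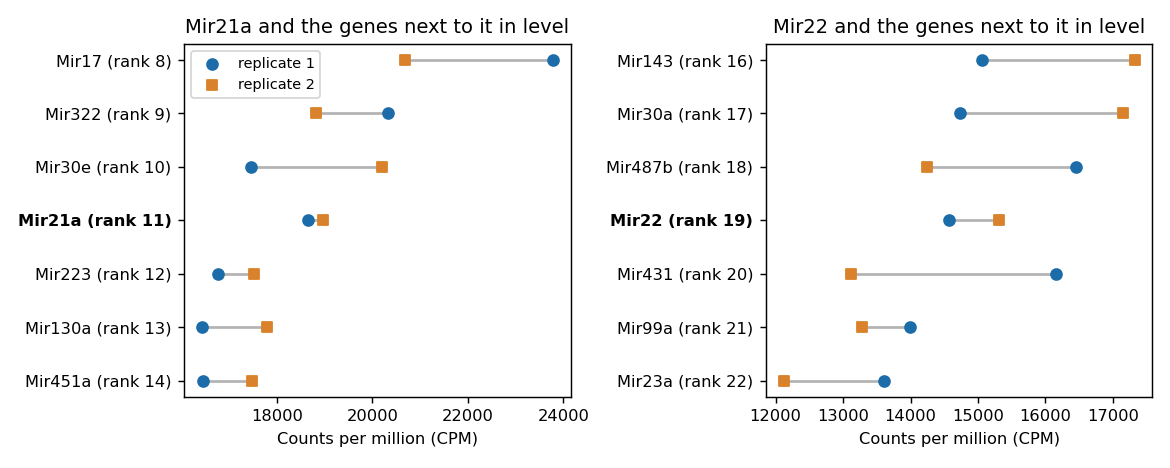
Level in CPM of Mir21a, of Mir22 and of the 3 genes next above and below each by mean level, with 1 point per library joined by a line. The points of Mir21a (18656 and 18974 CPM) lie closest together of the genes in its panel, and the line of Mir22 overlaps 4 of its 6 neighbours.

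Both members stood near the top of the exon-hosted miRNA genes. Of the 1973 rows, 234 had a hairpin wholly inside an exon of another gene on the same strand. An exon of any annotated transcript sufficed, so a hairpin of this class can be intronic in other transcripts of its host. Of these 234, 82 reached 1 CPM in both libraries and 19 reached 1000 CPM on average. Mir21a was place 5 and Mir22 place 7 among them, by counts that leave out multimapping reads. Above Mir21a were Mir122, the hepatocyte miRNA (213914 ± 906 CPM), Mir126a, the endothelial miRNA of Egfl7 (47008 ± 2175 CPM), Mirlet7i (26376 ± 2591 CPM) and Mir17 of Mir17hg. Mir223 stood between the 2 members, with a range that overlapped neither. Below Mir22 came Mir20a of Mir17hg (10907 ± 352 CPM), Mir93, in an exon of Mcm7 (10347 ± 1612 CPM), and Mirlet7d (7571 ± 275 CPM). Of these 10 genes, 4 have a protein-coding gene among their hosts: Mir126a, Mir21a, Mir22 through Tlcd2, and Mir93. Whether the transcript that holds the hairpin is itself coding was not part of this count.

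Exon-hosted genes together held 42.2% ± 0.27 of all counts (SD, n = 2), intronic genes 29.9% ± 0.12 and genes without a host 25.4% ± 0.34. Mir21a and Mir22 made up 7.90% of the exon-hosted counts in replicate 1 and 8.08% in replicate 2. With Mir122 left out of the class, they made up 16.0% and 16.3%. Among genes that reached 1 CPM in both libraries, the median level was 45.5 CPM in the exon-hosted and 45.5 CPM in the intronic class, so a typical exon-hosted gene lay far below both members.

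**Figure D3:**
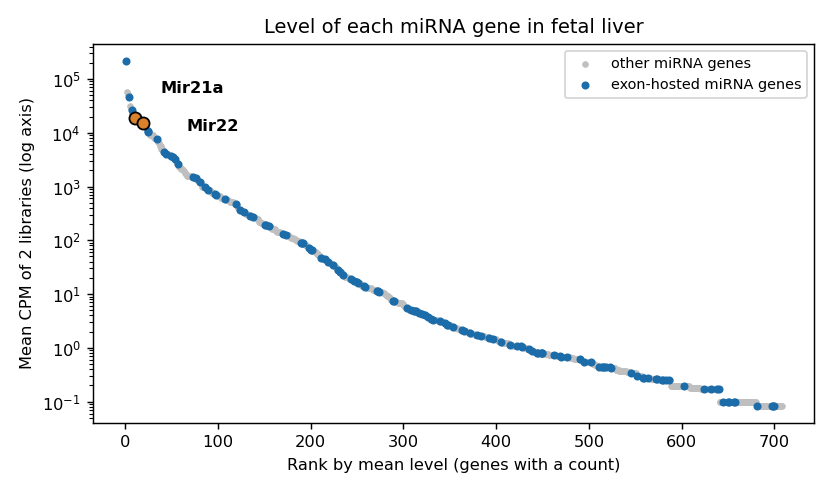
Mean CPM of each miRNA gene with a count (log axis) against its rank, with exon-hosted genes in blue and the 2 members in orange. Mir21a (rank 11) and Mir22 (rank 19) sit at the upper end, while exon-hosted genes span the whole range of levels.

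Both members were slightly higher in replicate 2 by counting error alone. Neither passed a test that includes the spread between libraries, which could not call differences this small. For Mir21a, 18656 CPM against 18974 CPM is a log2 ratio of 0.024 (counting SE 0.0063), or 1.70% more, with an adjusted p of 0.000368 by the exact conditional binomial test with Benjamini-Hochberg adjustment over 440 genes. For Mir22, 14574 CPM against 15311 CPM is a log2 ratio of 0.071 (counting SE 0.0071), or 5.06% more, with an adjusted p of 1.05e-22 by the same exact test. That test called 196 of the 440 genes (44.5%), 77 of them higher in replicate 2 (17.5%) and 119 lower (27%). With TMM or DESeq2 scaling the split became 96 higher and 98 lower. The binomial test covers counting error alone and compares these 2 pools. At the counts of these genes it calls differences of a few percent. Among the 82 genes that reached 1000 CPM on average, as both members did, it called 76 (92.7%).

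Against the spread between the pools, neither difference stood out. The common biological coefficient of variation of the 2 libraries, estimated with edgeR, was 23.0%. An edgeR exact test with that common dispersion gave an adjusted p of 1 for Mir21a and for Mir22. It called 2 of 440 genes (0.455%), and 22 had an unadjusted p under 0.05. The 2 genes, named after their values were seen, were Mir215, with 75 and 1920 counts, and Mir802, with 76 and 449. The dispersion was estimated from the same pair of libraries that it was used to compare. With a coefficient of variation of 23.0%, differences of 1.70% and 5.06% could not pass. The edgeR result therefore does not show that the pools are equal in Mir21a or Mir22.

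Over the 82 genes that reached 1000 CPM on average, the median absolute log2 ratio between the pools was 0.19 and the median coefficient of variation 9.48%. The coefficient of variation was 1.19% for Mir21a and 3.49% for Mir22. Of these genes, 5 had a smaller absolute ratio than Mir21a and 15 a smaller one than Mir22. This order depends on the scaling. With TMM the log2 ratio was 0.10 for Mir21a and 0.15 for Mir22, and 21 and 36 of the 82 genes had a smaller absolute ratio.

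The log2 ratio of Mir21a to Mir22 differed between the pools by -0.047 (replicate 2 minus replicate 1; counting SE 0.0095), with a two-sided Fisher's exact p of 9.37e-07 on counts alone. This difference does not depend on the library total.

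**Figure D4:**
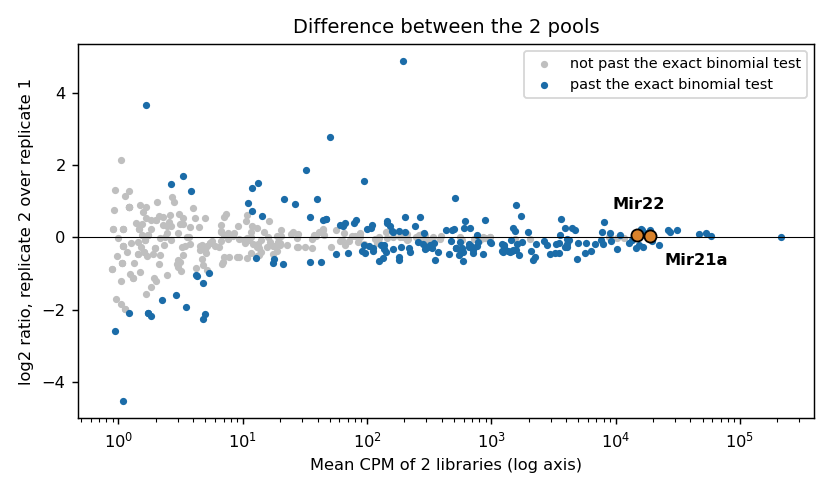
Log2 ratio of replicate 2 over replicate 1 against mean CPM (log axis) for the 440 tested genes, with genes past the exact binomial test in blue. Mir21a (0.024) and Mir22 (0.071) lie close to 0, while genes of lower level reach ratios such as 4.89 for Mir215.

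By log2 ratio between the pools, the genes of 1000 CPM or more nearest to Mir21a were Mir15a of Dleu2 (0.019), Mirlet7g of Wdr82 (0.031) and Mir122 (0.0086). Those nearest to Mir22 were Mir20a (0.066), Mir16-1 (0.065) and Mir223 (0.064). This likeness rests on 2 libraries and a single ratio per gene, and is a description only. Some genes set beside the members have words of 18 bases that recur in another listed hairpin. Their levels are less certain and can be too low, because multimapping reads are in no gene count. These genes are Mir16-1 (7.89%), Mir23a (5.17%), Mirlet7i (2.94%), Mirlet7g (2.82%), Mir30a (1.85%) and Mir30e (1.33%). The same holds for Mir107, named below, with a larger share (18.6%). Each share is of all words of the hairpin, so even a small share can cover most of a mature arm.

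Of a list of 16 growth and regeneration miRNAs, 13 had a row of that name and were tested, 3 were higher and 3 lower in replicate 2 past the exact binomial test, and 7 did not pass. The share called (6 of 13) is near that of all tested genes (44.5%). Their median log2 ratio was -0.002, against -0.08 over all tested genes. The highest members were Mir17 (22237 CPM), Mir127, an imprinted miRNA (16637 ± 2231 CPM), and Mir20a. Mir221 and Mir222, a pair associated with hepatocyte proliferation, were at 308 ± 13.6 CPM and 126 ± 1.13 CPM, far below Mir21a.

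Of a list of 16 miRNAs of lipid and glucose metabolism, 15 had a row of that name and were tested. Past the same test, 6 were higher in replicate 2 and 4 were lower. The median log2 ratio of the list was -0.03. Mir122, Mir223 and Mir143 were its highest members. Mir33, which is hosted by Srebf2 and limits cholesterol export, was at 68.3 CPM in replicate 1 and 95.1 CPM in replicate 2. Mir107 (1587 ± 276 CPM) and Mir148a (1546 ± 34.4 CPM) were well below Mir22. The test called 10 of 15 metabolic miRNAs, beside 44.5% of all tested genes and 92.7% of genes that reached 1000 CPM on average. The list was not matched to other genes for level, so these shares cannot show whether it has an excess of its own.

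Totals on the annotated strand were 5930074 and 5102289 counts. As a check of tissue, the hepatocyte markers summed to 219881 CPM in replicate 1 and 221989 CPM in replicate 2, with 0 of 4 at 0. Nearly all of this sum was Mir122 (213274 and 214555 CPM). Of the 4, 3 were called higher in replicate 2 and 0 lower. Markers of other cell types were present in both pools, and calls here are by the exact binomial test. Of all 440 tested genes, that test called 17.5% higher in replicate 2 and 27% lower. Erythroid markers summed to 24071 and 27152 CPM (0 of 3 at 0), with 2 called higher in replicate 2 and Mir486 called lower (log2 -0.66). Mesenchymal markers summed to 16076 and 18159 CPM (0 of 5 at 0), with 3 called higher and Mir214 lower (log2 -0.44). Nearly all of the mesenchymal sum was Mir143 (15059 and 17326 CPM). That sum can be too low, since 39.6% of the 18-base words of Mir199a-1 and 22.6% of those of Mir199a-2 recur in another listed hairpin. The endothelial Mir126a was at 45470 and 48546 CPM and was called higher. Leukocyte markers on the annotated strand summed to 17990 and 18736 CPM (0 of 6 at 0, 1 of 5 tested called higher), nearly all of it Mir223. This sum is too low, because the leukocyte gene Mir142 had no row of that name and lies opposite the Mir142b row. That row held 1 count in each library on its own strand and the equivalent of 31509 and 36500 CPM on the other. Epithelial and biliary markers summed to 4266 CPM in replicate 1 and 6376 CPM in replicate 2, with 0 of 5 at 0 and 5 called higher. Markers of intestine and pancreas summed to 1422 and 2532 CPM, with 0 of 6 at 0, 3 called higher and 1 lower. The part of these differences in those of Mir21a and Mir22 was not tested.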

How the data were processed

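Per the text deposited with each library, reads were assigned by the authors to assembly mm10 and annotation M4. The deposited tables hold raw counts per gene in 3 columns without a header, and 4 tally rows, which were left out. The columns were read as irrespective of strand, annotated strand and other strand. This reading is inferred: the first equals the sum of the others in all gene rows, and the second has the larger total. Every sense count, CPM and rank rests on it. The sources used here do not give the aligner, the counter or any use of molecular identifiers. Multimapping reads (28.1% and 28.2% of those tallied) are in no gene count. Column 3 was used as the sense count, and CPM were computed over its total, where 1 count is 0.169 and 0.196 CPM.

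Names, exons and hosts came from GENCODE M21 on the same assembly (1894 of 1973 rows matched by identifier). A host exon contains the whole hairpin on the same strand and may belong to any annotated transcript, whatever its type. The exon-hosted and intronic classes rest on this rule. Genes with a summed count of at least 10 entered an exact conditional binomial test, two-sided (scipy 1.17.1), with a threshold of 0.05 after Benjamini-Hochberg adjustment and 0.5 added to counts for ratios. edgeR 4.0.16 gave TMM factors, the common dispersion and an alternative exact test, and DESeq2 1.42.0 gave size factors (R 4.3.3). No contrast exists for a quasi-likelihood test. Hairpins were folded with RNAfold 2.7.2. The exact test was tested on simulated data.

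Named genes, by rule: the 3 next in level above and below each member, the 3 nearest in ratio among genes of 1000 CPM or more, genes sharing a seed, the 10 highest exon-hosted genes, and the 3 highest of each list, with further list members as examples. Members, lists and rules were chosen with earlier results of these data known. List names Mir18a, Mir92a-1 and Mir378a matched no row, and rows named Mir18 and Mir92-1 were not counted in their place.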

Additional observations from a re-analysis of the deposited data

How the results depend on the processing

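The levels depend on the total used. Mir21a was at 17278 CPM and Mir22 at 13721 CPM with counts irrespective of strand, at 23935 and 19009 CPM with Mir122 left out of the total, and at 7887 and 6263 CPM with all tallied reads as the total; in each case the construction of the total sets the shift. Without 1 library at a time, Mir21a was at 18656 to 18974 CPM, Mir22 at 14574 to 15311 CPM and their log2 ratio at 0.31 to 0.36. The exact binomial test called 179 to 206 genes under the other scalings and filters, against 196. The share called varied with the number tested. It was 179 of 284 genes with a filter of 100 counts, 195 of 708 with no filter and 196 of 440 in the main run. With the edgeR exact test and its common dispersion, 2 genes were called, and the differences of Mir21a (log2 0.024) and Mir22 (log2 0.071) no longer passed, since that test adds the spread between libraries to counting error. Under the other alternatives run, both differences kept their direction and passed. Leaving out a library leaves no difference between pools to compute. No paired analysis was possible because the series has 1 group.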
